A study of Mus musculus with 5 samples.

Results

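The 10 type III and type IV intermediate filament genes *Nes*, *Vim*, *Gfap*, *Des*, *Nefl*, *Nefm*, *Nefh*, *Ina*, *Prph* and *Synm* were examined in the RNA-seq data of neural stem cells (NSCs) and STO cells. They were chosen by name, as the rows whose RefSeq transcript maps to 1 of these symbols, and are 10 of the 24844 genes (named genes and transcripts without a name) in the files. All 10 had rows in every sample. The NSCs were primary cells isolated from embryonic mouse cortex and kept for 5 to 8 passages in medium with EGF, bFGF, heparin and B27, and 2 samples were sequenced. STO cells are an established line of SIM mouse embryonic fibroblasts, grown in serum for more than 30 passages, and 3 samples were sequenced. In the study they were the somatic cells of its comparison and also the feeder cells for female germline stem cells. Both cell types carry the strain label C57BL/6, although the study describes STO cells as SIM-derived and resistant to thioguanine and ouabain. Neither received a treatment. Tissue of origin, mouse background, drug resistance, medium, passage number and establishment as a line therefore cannot be told apart in the comparison. The labels do not say that replicates came from separate cultures, so the p-values measure only the spread between these samples, which may be technical.

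Intermediate filaments are rope-like polymers of coiled-coil proteins that give the cytoplasm its mechanical strength. Type III proteins (vimentin, desmin, GFAP and peripherin) can form filaments by themselves, whereas most type IV proteins (the neurofilament subunits, alpha-internexin, nestin and synemin) are built into filaments together with a partner. Cells change their set of subunits as they mature. Neural progenitors are known for nestin with vimentin, astrocytes for GFAP, neurons for the neurofilament triplet and alpha-internexin, muscle for desmin, and fibroblasts for vimentin.

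Values are FPKM, that is, fragment counts divided by the length of the transcript and the depth of the library, so levels of different genes can be set side by side. The fragments implied by the deposited confidence intervals came to between 15200000 and 22300000 per sample, and the summed FPKM to 442905 and 446393 in the NSC samples and 385485 to 399970 in the STO samples. Markers are given beside the labels as a description, since the lists were chosen with earlier results of these data known. The 4 neural stem cell markers *Sox2*, *Pax6*, *Fabp7* and *Olig2* were lower in STO cells, where all were listed at 0, and their summed level in NSCs was 3595 and 3816 FPKM. All 6 fibroblast markers were higher in STO cells, with a summed level of 5.05 to 5.12 FPKM in NSCs and 1352 to 1462 FPKM in STO cells.

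*Nes* was the member that separated the cell types most, and the study also used it to identify NSCs by RT-PCR. The primers of that assay are shown because they tie the measured transcript to a place in the gene. Both lie in the coding sequence of *Nes*, a gene on the plus strand of chromosome 3 (mm9). The forward primer matches the plus strand in exon 1 at chr3:87775848-87775866 and the reverse primer the minus strand in exon 4 at chr3:87779446-87779467. The matching *Nes* transcript models have 4 or 5 exons. In each, 387 bases of the spliced transcript run from the start of one primer to the end of the other.
Nestin forward: gcgctggaacagagattgg
Nestin reverse: tgtcacaggagtctcaagggta

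The 250 bases before the RefSeq start (GRCm38.p6, written in the direction of the gene) are shown for the 3 members with the highest level in NSCs, of which *Vim* was also high in STO cells while *Nes* and *Gfap* were not. RefSeq promoters were matched for 7 of the 10 members and not for *Nefl*, *Nefm* and *Nefh*. Capitals mark the TATA box motif TATAAA, the CAAT box motif CCAAT, the GC box motif GGGCGG and the E-box motif CAGCTG on either strand, and a motif on the opposite strand appears as its reverse complement. The windows are chr3:87970843-87971092 on the plus strand for *Nes*, chr2:13574061-13574310 on the plus strand for *Vim* and chr11:102897201-102897450 on the minus strand for *Gfap*.
Nes: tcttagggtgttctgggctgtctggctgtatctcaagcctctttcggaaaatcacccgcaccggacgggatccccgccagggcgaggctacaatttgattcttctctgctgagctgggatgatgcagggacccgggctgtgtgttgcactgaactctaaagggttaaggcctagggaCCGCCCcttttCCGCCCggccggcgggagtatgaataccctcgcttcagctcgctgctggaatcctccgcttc
Vim: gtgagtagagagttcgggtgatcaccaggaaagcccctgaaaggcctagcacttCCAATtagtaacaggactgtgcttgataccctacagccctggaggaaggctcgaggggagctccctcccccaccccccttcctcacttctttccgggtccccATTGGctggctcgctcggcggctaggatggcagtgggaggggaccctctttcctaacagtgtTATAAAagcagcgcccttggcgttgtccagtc
Gfap: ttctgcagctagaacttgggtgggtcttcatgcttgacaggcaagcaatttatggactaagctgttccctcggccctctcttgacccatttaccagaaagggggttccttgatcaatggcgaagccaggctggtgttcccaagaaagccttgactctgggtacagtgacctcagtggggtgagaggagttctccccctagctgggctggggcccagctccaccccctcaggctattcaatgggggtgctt

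*Vim* had 1 TATA box motif, at position -32 from the start site, and 2 CAAT box motifs. *Nes* had 2 GC box motifs, both on the opposite strand, and *Gfap* had none of the 4 motifs. Of 32851 mouse promoter windows of the same length, 4063 (12.4%) hold the TATA box motif, 11120 (33.8%) the CAAT box motif, 10756 (32.7%) the GC box motif and 4271 the E-box motif. The dinucleotide CG occurred 15 times in the *Nes* window, 8 times in *Vim* and 2 times in *Gfap*, against a median of 6 over all windows. These counts describe the windows and say nothing about which factors bind there.

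Of the members, 7 had a mean of at least 1 FPKM in one of the cell types and were tested between STO cells and NSCs. In STO cells *Nes*, *Gfap*, *Ina*, *Nefm* and *Vim* were lower (*Vim* not after quantile normalization) and *Nefl* and *Synm* were higher, by limma on log2(FPKM + 1) with Benjamini-Hochberg adjustment over the 12278 genes tested. Across all genes tested, 41.9% were called higher and 43.7% lower in STO cells, so a call alone does not set a gene apart and the sizes below matter more. Only *Vim* and *Synm* reached 1 FPKM in both cell types. The other 5 passed the filter through the cell type where they were high (4 through NSCs and *Nefl* through STO cells) and were bound to differ, so their number is not evidence of a shared direction.

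**Figure D1:**
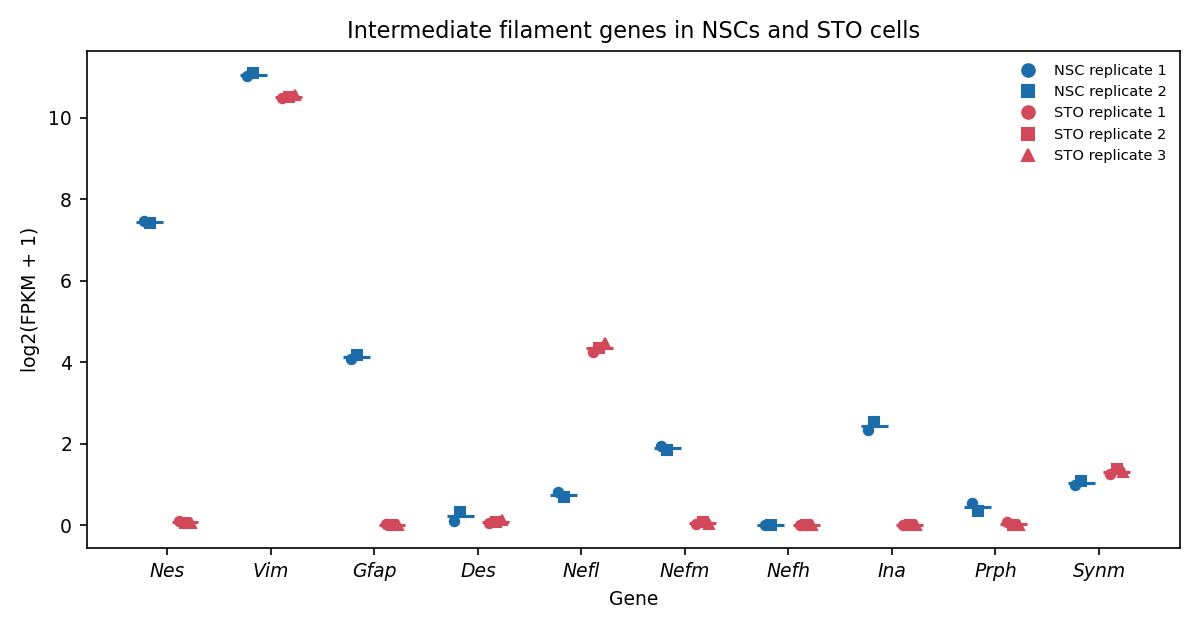
Expression of the 10 members in each sample as log2(FPKM + 1) (blue, 2 NSC samples; red, 3 STO samples; horizontal lines, means of a cell type). *Vim* is at the top in both cell types, *Nes*, *Gfap*, *Nefm* and *Ina* are near 0 in STO cells, and *Nefl* is the only member with a large rise in STO cells (17.9 to 21.2 FPKM against 0.609 and 0.763).

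*Vim*, which encodes vimentin, was the most abundant member in every sample. Its locus is chr2:13495938-13504453 in mm9. It had 2078 and 2172 FPKM in the NSC samples and 1424, 1441 and 1497 FPKM in the STO samples, and ranked between 8 and 11 among all 24844 genes in each sample. Every STO sample was below both NSC samples. The mean was 2125 ± 66.0 FPKM (SD, n = 2) in NSCs and 1454 ± 38.4 FPKM (SD, n = 3) in STO cells, a ratio of 1.46. The log2 fold change was -0.55 ± 0.079 (SE) with an adjusted p of 0.000691, but after quantile normalization it was 0.02 (adjusted p = 0.81) and when libraries were scaled to an equal summed FPKM, which moved the median over all genes from -0.02 to 0.13, it was -0.37 (adjusted p = 0.00289). Quantile normalization gives genes of equal rank equal values, and the ranks of *Vim* were alike in all samples, so it could leave little difference. Under every other alternative *Vim* was lower in STO cells. The size of the *Vim* difference therefore depends on the scaling, while its place among the most abundant transcripts of both cell types does not.

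*Nes* encodes nestin, the filament protein of neural progenitors, which lacks the ability to polymerise by itself and joins vimentin. Its locus is chr3:87775015-87784373 in mm9. It stood at 176 and 169 FPKM in the NSC samples, from 33376 and 35019 implied fragments. In the STO samples it stood at 0.0724, 0.0442 and 0.0380 FPKM, from at most 9.59 implied fragments in any of them. The cell types were thus far apart, and the STO values rest on a few fragments each. The mean was 173 ± 5.4 FPKM (SD, n = 2) in NSCs and 0.0515 ± 0.018 FPKM (SD, n = 3) in STO cells, a ratio of 3352. The log2 fold change was -7.37 ± 0.053 (SE, adjusted p = 3.33e-09). In bulk RNA, fewer cells with a transcript and less of it in each cell cannot be told apart.

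Because a scaling of the whole library cancels in a ratio within it, *Nes* was also set against *Vim*. The ratio of *Nes* to *Vim* FPKM was 0.0849 and 0.0778 in the NSC samples and 5.08e-05, 3.07e-05 and 2.54e-05 in the STO samples. The difference in mean log2 ratio was -11.22 (exact two-sided permutation test, p = 0.2, the smallest value that the 10 arrangements of 2 against 3 samples allow). With 1 FPKM added to both genes it was -6.82, and the STO values of *Nes* rest on under 10 fragments per sample. *Nes* made up 7.44% ± 0.43 (SD, n = 2) of the summed FPKM of the 10 members in NSCs and 0.00351% ± 0.0013 (SD, n = 3) in STO cells. *Vim* made up 91.4% ± 0.41 (SD, n = 2) and 98.6% ± 0.075 (SD, n = 3). The summed FPKM of the members was 2280 and 2367 in NSCs and 1443, 1462 and 1520 in STO cells, and this sum, carried by *Vim*, differed by -0.66 on the log2 scale (exact two-sided permutation test, p = 0.2, again the smallest possible) and by -0.11 after quantile normalization.

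Among the genes whose levels lay closest to *Nes* over the 5 samples, by Euclidean distance on log2(FPKM + 1), were *Bcan* and *Fam181b*, at distances of 0.13 and 0.24. *Bcan*, which encodes the brain proteoglycan brevican, is also a neighbour of *Nes*, 7.08 kb away in mm9. It had 170 and 165 FPKM in the NSC samples and 0.0165, 0 and 0 FPKM in the STO samples. The genes closest to *Vim* were *Tpt1*, *Ppia* and *Rpl23a*, at 0.22, 0.33 and 0.45, and encode a translationally controlled tumour protein, cyclophilin A and a ribosomal protein. With 2 cell types this distance reflects little more than the pair of mean levels.

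**Figure D2:**
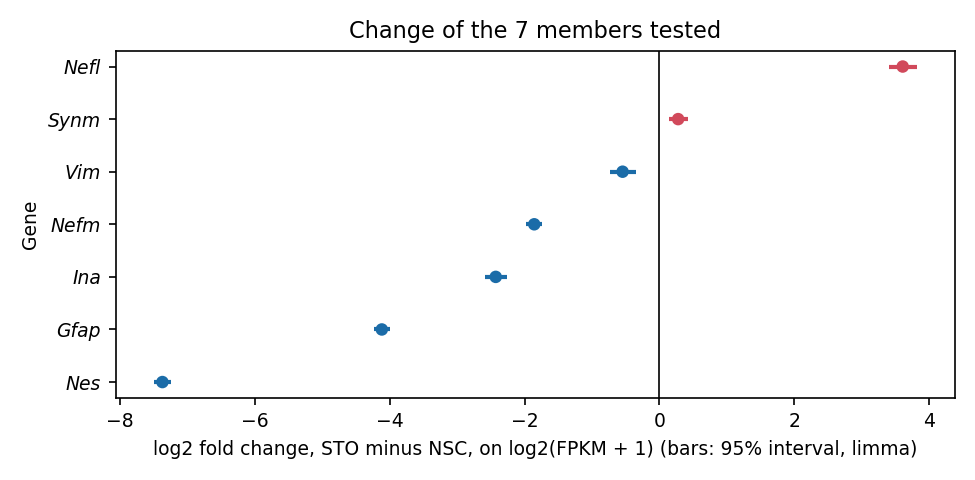
Log2 fold change of the 7 members tested, STO cells minus NSCs, on log2(FPKM + 1) (points, limma estimate; bars, 95% confidence interval; blue, lower and red, higher in STO cells at an adjusted p under 0.05). *Nes* (-7.37) and *Nefl* (3.60) lie at the ends, and *Vim* (-0.55) and *Synm* (0.28) lie near 0. After quantile normalization the *Vim* value is 0.02.

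*Gfap* encodes the glial fibrillary acidic protein of astrocytes and of some neural stem cells. The locus is chr11:102748650-102758514 in mm9, on the minus strand, and it overlaps a long non-coding RNA model on the plus strand. The study used *Gfap*, as the standard astrocyte marker, for a negative control when it identified its NSCs by RT-PCR. In the RNA-seq data *Gfap* had 15.9 and 16.9 FPKM in the NSC samples, from 851 and 936 implied fragments. The 2 assays were not compared. It had 0.0163 FPKM in STO replicate 1, less than 1 fragment, and was listed at 0 in STO replicates 2 and 3. The log2 fold change was -4.12 ± 0.050 (SE, adjusted p = 7.45e-09), and it understates the change because of the pseudocount. All of the *Gfap* signal was given to 1 of the 2 annotated transcripts, NM_010277, and NM_001131020 was listed at 0 in every sample.

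Other astrocyte markers were measured beside *Gfap*. *Aqp4*, *Aldh1l1*, *S100b* and *Agt* were lower in STO cells and *Gja1* was higher, and none of the 5 was at 0 throughout a cell type. The genes that were lower passed the filter through NSCs alone and were bound to differ. Only *Gja1* reached 1 FPKM in both cell types. Of all genes tested, 41.9% were called higher and 43.7% lower in STO cells. The summed level of the 5 was 83.3 to 84.9 FPKM in NSCs and 24.9 to 29.3 FPKM in STO cells. Almost all of the STO sum was *Gja1* (24.6 to 29.0 FPKM). Whether cells of an astrocyte type in the NSC cultures account for the *Gfap* level was not tested.

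The subunits of neuronal filaments did not move together. *Nefl*, *Nefm* and *Nefh* encode the light, medium and heavy neurofilament proteins, and the light protein is the one the others assemble with. *Ina* encodes alpha-internexin, which precedes the triplet in developing neurons. *Nefl* was higher in STO cells, *Nefm* and *Ina* were lower, and *Nefh* was listed at 0 in all samples.

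*Nefl* (chr14:68701941-68705794 in mm9, plus strand) had 0.763 and 0.609 FPKM in the NSC samples and 17.9, 19.5 and 21.2 FPKM in the STO samples. All 3 STO samples were far above the NSC samples, and the values rest on 801, 998 and 1447 implied fragments in STO cells and 47.5 and 41.3 in NSCs. The mean was 0.686 ± 0.11 FPKM (SD, n = 2) in NSCs and 19.5 ± 1.6 FPKM (SD, n = 3) in STO cells, a ratio of 28.5. On the log2 scale *Nefl* was higher by 3.60 ± 0.084 (SE, adjusted p = 9.34e-08). In STO cells *Nefl* was the second most abundant member after *Vim*, with 1.32% ± 0.076 (SD, n = 3) of the summed FPKM of the 10.

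*Nefm* (chr14:68737602-68743061 in mm9, minus strand) lies 31.8 kb from *Nefl* on the same chromosome. It had 2.86 and 2.62 FPKM in the NSC samples and 0.0137, 0.0599 and 0.0270 FPKM in the STO samples, where the implied fragments were 0.493, 3.82 and 2.13. Its order was thus the opposite of that of its neighbour, with both NSC samples above all STO samples. *Nefm* had a log2 fold change of -1.86 ± 0.050 (SE, adjusted p = 1.72e-07). In the GENCODE annotation of the same build a longer *Nefm* model on the minus strand also spans *Nefl*, and the sources used here do not say whether the quantification used the strand of the reads.

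*Ina* (chr19:47089188-47098836 in mm9, plus strand) had 4.02 and 4.77 FPKM in the NSC samples and was listed at 0 in all 3 STO samples. The log2 fold change on log2(FPKM + 1) was -2.43 ± 0.067 (SE, adjusted p = 1.96e-07), and no ratio was formed against the listed 0. *Ina* overlaps the *Nt5c2* gene model on the opposite strand. *Nefh* (chr11:4838759-4848067 in mm9, minus strand) was listed at 0 in every sample, with the deposited estimate status OK in each, and was not tested.

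**Figure D3:**
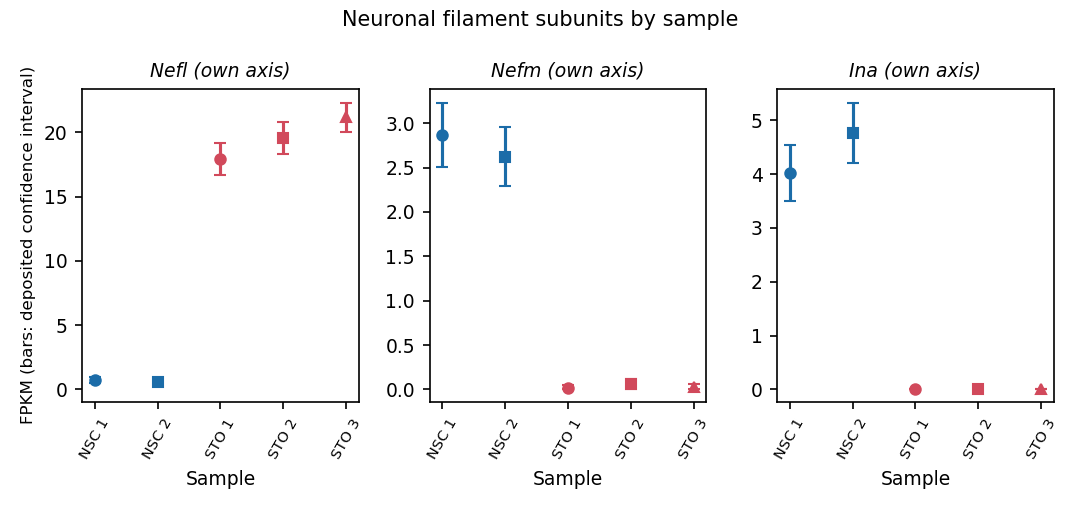
FPKM of *Nefl*, *Nefm* and *Ina* in each sample, each gene on its own linear axis (bars, confidence interval deposited with the value, which covers counting error only). *Nefl* is at 17.9 to 21.2 FPKM in STO cells and below 1 in NSCs, whereas *Nefm* and *Ina* are at 2.62 to 4.77 FPKM in NSCs and at or near 0 in STO cells.

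The neuronal markers gave a mixed picture of their own. Of the 6 genes, 4 could be tested, and *Dcx*, *Map2* and *Snap25* were lower in STO cells while *Tubb3* was not called (log2 fold change -0.06, adjusted p = 0.48, with 8.14 to 9.25 FPKM in NSCs and 7.84 to 8.57 in STO cells). *Dcx* and *Snap25* passed the filter through NSCs alone and were bound to be lower in STO cells. *Rbfox3*, *Stmn2* and *Snap25* were listed at 0 in all STO samples, where *Nefl* was highest. The summed level of the 6 was 118.3 and 118.4 FPKM in NSCs and 12.3 to 12.8 FPKM in STO cells, most of it *Map2* in NSCs and *Tubb3* in STO cells. In NSCs the part of more mature neurons in the *Nefm* and *Ina* levels was not tested.

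*Prph* encodes peripherin, a type III protein of peripheral and some central neurons, and lies at chr15:98885605-98889409 in mm9. It had 0.449 and 0.279 FPKM in the NSC samples, 0.0501 FPKM in STO replicate 1 and was listed at 0 in the other STO samples. These levels were below the filter, and with no filter on low values the log2 fold change was -0.42 (adjusted p = 0.00148). All of it was given to NM_001163589, and the other 2 of its 3 transcripts, which share the locus, were listed at 0 in every sample. *Sox10*, a marker of Schwann cells and also of oligodendrocyte precursors, was lower in STO cells, with 8.66 and 10.2 FPKM in NSCs and 0 to 0.0163 FPKM in STO cells. It passed the filter through NSCs alone and was bound to differ.

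*Des* encodes desmin, the filament protein of muscle, and lies at chr1:75356867-75365154 in mm9. It had 0.0830 and 0.256 FPKM in the NSC samples and 0.0434, 0.0631 and 0.0854 FPKM in the STO samples. The cell types overlapped, the NSC samples differed from each other by more than any STO samples did, and the values rest on 2.13 to 26.0 implied fragments. *Des* was below the filter, and with no filter its log2 fold change was -0.13 (adjusted p = 0.12). None of the 6 skeletal muscle markers reached 1 FPKM, and their summed level was 0.0965 and 0.313 FPKM in NSCs and 0.0587 to 0.0972 FPKM in STO cells. Of the 5 smooth muscle and pericyte markers, *Acta2* and *Tagln* were higher in STO cells and *Cnn1*, *Myh11* and *Rgs5* were below the filter, with a summed level of 2.90 to 3.37 FPKM in NSCs and 61.8 to 68.4 FPKM in STO cells. *Tagln* passed the filter through STO cells alone and was bound to be higher there. Below the filter, mean levels of *Cnn1* (0.791 FPKM in NSCs, 0.125 in STO cells) and *Rgs5* (0.241 and 0.0392) were lower in STO cells. That of *Myh11* (0.0259 and 0.149) was higher. *Des* was thus near 0 in STO cells, and the smooth muscle list was mixed there, with *Acta2*, which encodes smooth muscle actin, at 46.2 to 51.2 FPKM. Markers of microglia summed to at most 0.386 FPKM and those of endothelium to at most 0.187 FPKM in any sample.

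*Synm* encodes synemin, a large type IV protein that links vimentin or desmin filaments to other structures. It lies at chr7:74875047-74904628 in mm9, on the minus strand. Summed over transcripts it had 0.993 and 1.11 FPKM in the NSC samples and 1.39, 1.60 and 1.47 FPKM in the STO samples. All STO samples were above both NSC samples by a small margin. The mean was 1.05 ± 0.084 FPKM (SD, n = 2) in NSCs and 1.49 ± 0.10 FPKM (SD, n = 3) in STO cells, a ratio of 1.41. The log2 fold change was 0.28 ± 0.057 (SE, adjusted p = 0.00384).

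The 3 RefSeq transcripts of *Synm* have the same locus. NM_201639 had 0.513 and 0.265 FPKM in the NSC samples and 1.10, 1.05 and 1.04 FPKM in the STO samples, with no overlap between the cell types. NM_207663 had 0.480 and 0.847 FPKM in the NSC samples and 0.291, 0.551 and 0.432 FPKM in the STO samples, which overlapped. NM_183312 was listed at 0 throughout. As a share of the *Synm* FPKM, NM_201639 was 51.7% and 23.8% in the NSC samples and 79.1%, 65.5% and 70.6% in the STO samples. The NSC samples differed from each other by more than the STO samples did, and the way fragments were divided between transcripts that share exons is an estimate, so the shares are given as a description.

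**Figure D4:**
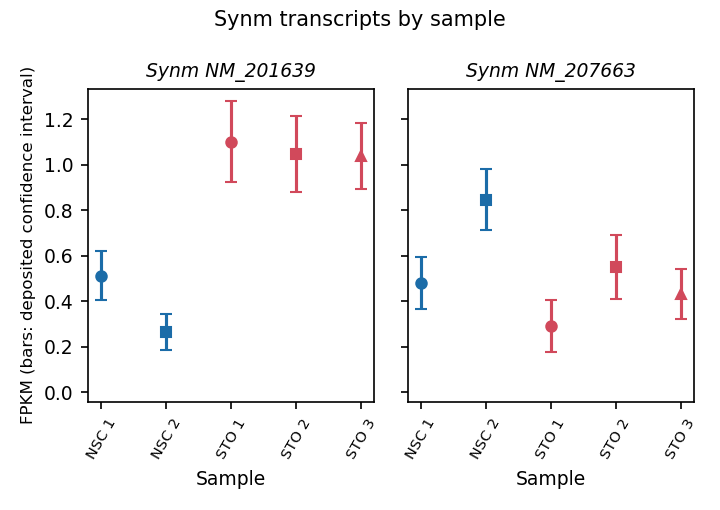
FPKM of the 2 *Synm* transcripts with signal in each sample, on a common linear axis (bars, deposited confidence interval, which does not cover the spread between samples). NM_201639 is at 1.04 to 1.10 FPKM in STO cells and 0.265 and 0.513 in NSCs, and NM_207663 overlaps between the cell types.

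The order of the levels differed between the cell types. In NSCs it ran from *Vim* (2125 FPKM) through *Nes* (173), *Gfap* (16.4), *Ina* (4.39), *Nefm* (2.74), *Synm* (1.05), *Nefl* (0.686), *Prph* (0.364) and *Des* (0.169) to *Nefh* at 0, and no neighbours in this order overlapped between samples. *Prph* and *Des* came close, at 0.279 against 0.256 FPKM in NSC replicate 2. In STO cells it ran from *Vim* (1454 FPKM) to *Nefl* (19.5) and *Synm* (1.49), each without overlap with the next. The other 7 had means of at most 0.0640 FPKM, and each overlapped with the next, so their order in STO cells was not resolved.

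Partner genes of the filaments were described from a list of 23, of which 12 could be tested. Of these, 7 were higher and 4 were lower in STO cells and 1 (*Tchp*) was not called, where 41.9% of all genes tested were higher and 43.7% lower. *Pkp2* and *Fam83h* passed the filter through STO cells alone and *Bfsp2* through NSCs alone, so these 3 were bound to differ. The 5 linker genes tested, *Plec*, *Dst*, *Macf1*, *Jup* and *Pkp2*, were higher in STO cells. The linker list had a summed level of 137 to 162 FPKM there against 37.3 to 39.5 FPKM in NSCs. The other 4 of the 9 linkers (*Eppk1*, *Dsp*, *Ppl* and *Evpl*, proteins mostly of epithelia) were below the filter. Of these, *Ppl* went the other way, with 0.451 and 0.301 FPKM in the NSC samples and 0.0123 to 0.0212 FPKM in the STO samples. With no filter on low values its log2 fold change was -0.43 (limma, adjusted p = 0.000574). In that fit *Evpl* was higher in STO cells (0.13, adjusted p = 0.00487), and *Eppk1* and *Dsp* were not called.

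*Plec* encodes plectin, the main cross-linker between intermediate filaments and other parts of the cytoskeleton. It had 3.70 and 4.14 FPKM in the NSC samples and 56.5, 58.2 and 42.5 FPKM in the STO samples, and a log2 fold change of 3.43 ± 0.14 (SE, adjusted p = 1.37e-06). *Macf1*, a spectraplakin that binds actin and microtubules, had 12.9 ± 0.15 FPKM (SD, n = 2) in the NSC samples and 54.6 to 60.6 FPKM in the STO samples and changed by 2.06 ± 0.062 (SE, adjusted p = 2.99e-07). *Fam83h*, whose protein is known to bind keratin filaments, changed by 1.95 ± 0.055 (SE, adjusted p = 2.35e-07), or by 3.58 with a pseudocount of 0.1. On the other side were *Bfsp2*, a filament gene best known from the lens, with 3.36 and 4.10 FPKM in NSCs and 0.0282, 0 and 0 FPKM in STO cells (log2 fold change -2.22, or -5.13 with a pseudocount of 0.1), *Dtna*, which encodes the synemin-binding protein alpha-dystrobrevin, and *Cryab*, which encodes the small chaperone alpha-B-crystallin. *Dtna* changed by -2.01 ± 0.11 (SE, adjusted p = 6.17e-06) and *Cryab* by -0.95 ± 0.13 (SE, adjusted p = 0.000527).

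**Figure D5:**
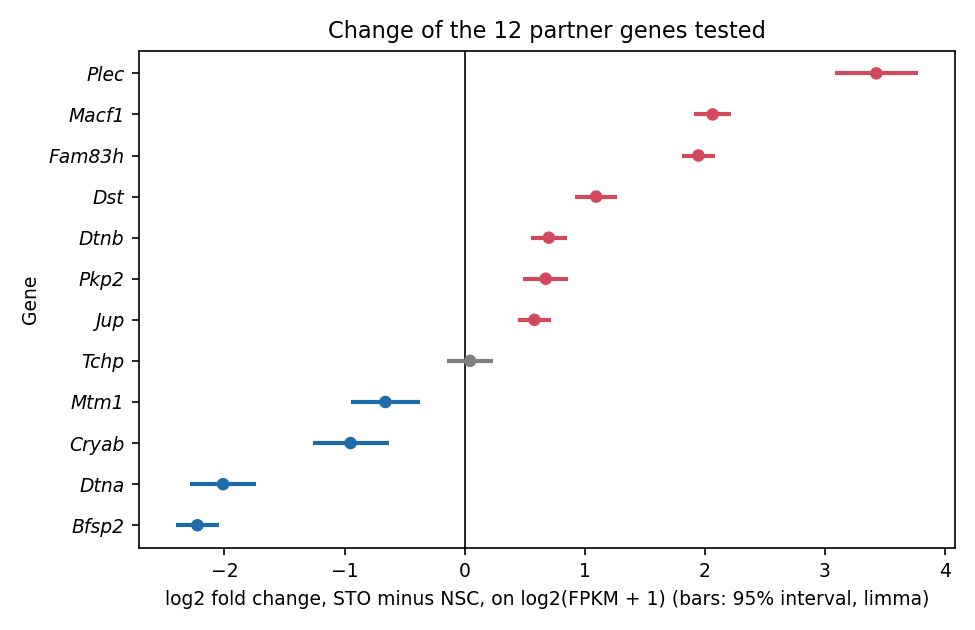
Log2 fold change of the 12 partner genes tested, STO cells minus NSCs, on log2(FPKM + 1) (points, limma estimate; bars, 95% confidence interval; red, higher; blue, lower; grey, not called at an adjusted p under 0.05). *Plec* (3.43) and *Macf1* (2.06) are at the top and *Bfsp2* (-2.22) is at the bottom.

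Keratins, the filament proteins of epithelia, were low in both cell types. *Krt18* and *Krt19* were listed at 0 in every sample, and *Krt8* was at most 0.0737 FPKM. *Krt7* had 0.0802 and 0.128 FPKM in the NSC samples and 0.307 to 0.439 FPKM in the STO samples. None of the 4 reached the filter.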

How the data were processed

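RNA-seq of 5 samples (2 NSC and 3 STO) was analysed, grouped by the titles in their labels. Per the study's methods, stranded mRNA libraries were read as paired ends and the trimmed reads were aligned to mm9 with Hisat2, listed as version 4.8.2 in the submitters' processing notes. The authors deposited FPKM from Cufflinks 2.2.1 with confidence bounds for 40201 RefSeq transcripts, so length and depth were divided out before deposit and no read counts were used. The fragments behind a value were inferred by taking the distance to its upper bound as 2 SD of a Poisson count. The bounds cover counting error and, for transcripts that share exons, may also cover the division of fragments between them. They do not cover the spread between samples.

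Transcripts were named through RefSeq identifiers of GRCm38.p6 (99.4% matched) and summed per symbol. Cell types were compared with limma 3.58.1 in R 4.3.3 on log2(FPKM + 1), with a variance trend in eBayes. Genes entered the fit when their mean was at least 1 FPKM in either cell type. Benjamini-Hochberg adjustment ran over all of them with a threshold of 0.05, and fold changes on this scale understate the change of low genes. The procedure was tested on simulated data in which only a small set of genes was shifted. Most genes tested were called here, so that simulation does not cover this setting. Ratios of mean FPKM were formed only where each cell type had at least 10 implied fragments over its samples. Named genes were all members, their transcripts, the 3 partner genes with the largest change in each direction and the 3 genes nearest to *Nes* and *Vim*, and marker or partner genes named beside these were chosen after their values were seen. The members and lists were chosen with earlier results of these data known. A few genes of the marker and partner lists and 1 of the 3 nearest genes are not reported here. Python 3.11.15 was used for the rest. Promoter windows came from RefSeq and primer positions from GENCODE transcripts of mm9.

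Both cell types have replicates 1 and 2, and nothing in the study pairs them. Alternatives changed the pseudocount, the filter, the scaling, the trend, the replicate block, the transcripts and the samples included.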

Additional observations from a re-analysis of the deposited data

How the results depend on the processing

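Of the 7 members tested, all but *Vim* kept their direction and their side of the threshold under every alternative that tested them. For *Nes*, *Gfap*, *Ina*, *Nefm* and *Nefl*, which passed the filter through a single cell type, this was largely fixed in advance. *Vim* was at 0.0221 after quantile normalization and was not called (limma, adjusted p = 0.81). That method works on ranks, and the ranks of *Vim* were alike in all samples. With a filter at a mean of 5 FPKM, 4 members and 7 partner genes were called, since only 4 members and 8 partner genes were left to test and *Nefm*, *Ina* and *Synm* had no value. Ranges over the alternatives were -10.16 to -7.24 for *Nes*, -7.30 to -4.02 for *Gfap*, -5.48 to -2.33 for *Ina*, -4.43 to -1.67 for *Nefm*, 3.54 to 4.65 for *Nefl* and 0.23 to 0.73 for *Synm* (log2 fold changes), with the largest sizes under a pseudocount of 0.1, or for *Synm* under quantile normalization. The log2 difference of the summed FPKM ran from -0.71 to -0.11 (lowest in size after quantile normalization) and that of the *Nes* to *Vim* ratio from -11.51 to -6.82 (lowest in size with 1 FPKM added to each gene). With a pseudocount of 0.1, *Fam83h* changed by 3.58, *Pkp2* by 1.55 and *Bfsp2* by -5.13. Scaling to an equal summed FPKM, chosen after seeing the data, also called *Tchp* (0.20, adjusted p = 0.037), so that all 12 partner genes tested were called. Leaving out each sample in turn changed no member's call and left 11 partner genes called, as before, and with 1 NSC sample left limma assumes that it varies like the other samples.

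With the replicate number as a block, 7 members were called as before, and *Synm* changed by 0.28 (adjusted p = 0.015). Deviations of same-numbered samples correlated at 0.0029 and 0.064, and those of NSC replicate 1 and STO replicate 3 at 0.059. The deviations of the 2 NSC samples mirror each other, so these values cannot decide whether samples are paired. The numbers were not taken to pair the samples because nothing in the study pairs them. The exact tests of the ratio and of the sum cannot pass the threshold with 2 against 3 samples. Depth limits the STO values of *Nes*, *Gfap*, *Nefm*, *Ina*, *Prph* and *Des*, which rest on under 10 fragments per sample.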
